A study of Glycine max with 4 samples.

Results

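Among the root transcriptomes of soybean (Glycine max) deposited here, 199 genes were highest in the library of replicate 1 of the transgenic line and lowest in that of replicate 2, with the wild-type libraries in between. The line, named Ri by the submitters, carries a suppression of GmHAD1-2, and the controls are wild-type plants (WT). The 199 genes were chosen from the 47973 genes listed in at least 1 of the 4 libraries, on their level in CPM, the expected count of a gene scaled to the total of its library. A gene was taken when its mean level was at least 8 CPM, when Ri replicate 1 lay above both WT libraries and Ri replicate 2 below both, and when Ri replicate 1 was more than 2-fold above Ri replicate 2. Of the 20233 genes of at least 8 CPM, 2381 (11.8%) had this order of libraries with a ratio of any size. The levels in all 4 libraries thus chose the genes, and those levels are given below as a description.

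A library of whole roots pools the RNA of many cell types, so a lower value can come from fewer cells of a type or from less RNA per cell, and these cannot be told apart here. GmHAD1-2 takes its name from the haloacid dehalogenase superfamily, which holds many phosphatases, enzymes that remove phosphate groups from proteins or small molecules. Plants of both genotypes stood for 12 days in nutrient solution with phosphate. The design text gives KH2PO4 at 250 mM, a unit that is in doubt because such solutions usually hold far less. Each genotype has 2 libraries, called biological replicates in the design text; the sources used here do not say how many plants make up a library, which promoter drives the suppression or how many transgenic lines were used.

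The libraries held 10077854 to 11070260 expected counts, so that 3 counts, taken as the floor of a library, came to 0.271 to 0.298 CPM. The Ri replicates differed from each other more than the WT replicates did: over 20228 genes of at least 8 CPM with a value above 0 in every library, the SD of the log2 ratio was 0.60 between the Ri replicates and 0.32 between the WT replicates. None of the 47973 gene identifiers could be matched to the reference table of named genes, so no product, pathway or protein is given for any gene, the suppression of GmHAD1-2 was not checked, and markers of other cell types were not analysed here. At most 2 identifiers are printed for the rise and 2 for the fall. Chromosome numbers are read from the identifiers.

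The genes made up a visible share of the root transcriptome, and that share followed the rule. Together they took 1.94% of the counts of WT replicate 1, 2.32% of WT replicate 2, 3.48% of Ri replicate 1 and 1.41% of Ri replicate 2. The median gene stood at 24.1 CPM in WT replicate 1, 27.4 CPM in WT replicate 2, 43.9 CPM in Ri replicate 1 and 15.9 CPM in Ri replicate 2. Scaled by transcript length, as in the deposited FPKM values, the medians were 15.0 and 17.3 FPKM in WT and 25.8 and 9.33 FPKM in Ri replicates 1 and 2, against 11.9 to 12.5 FPKM for all genes of at least 8 CPM in the 4 libraries. The ratio of Ri replicate 1 to Ri replicate 2 had a median of 2.33, with its middle 50% between 2.11 and 2.73. Most genes lay close to the limit of the rule: 125 had a ratio up to 2.5, 39 more a ratio up to 3, 21 up to 4, 7 up to 10 and 7 above 10. Just inside the limit the lowest ratio was 2.002 and just outside it was 1.998, with 48 genes between 2 and 2.1 and 62 of the same order between 1.9 and 2. At the limit on the level, the nearest genes were at 8.07 CPM inside and 7.996 CPM outside.

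**Figure D1:**
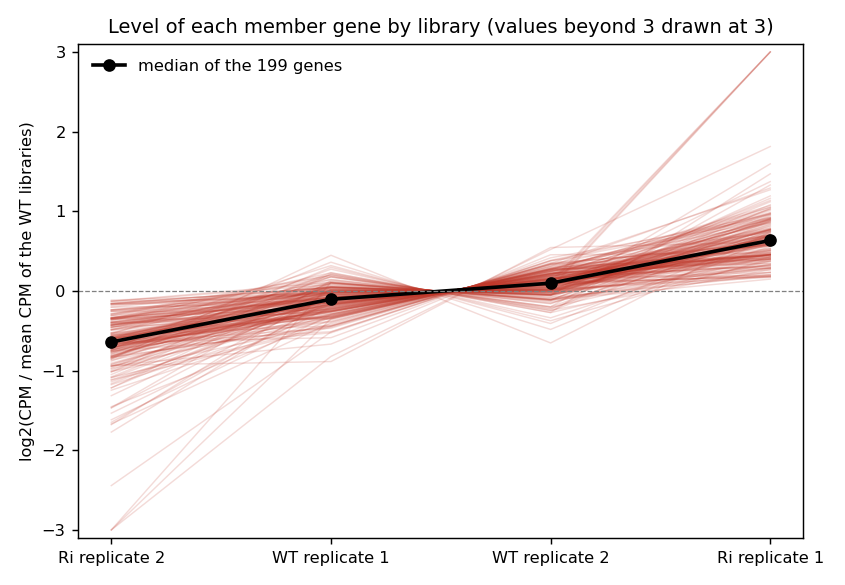
Level of each of the 199 genes in each library as log2 of its CPM over the mean CPM of the WT libraries; thin lines are genes, black points are the medians, and the libraries are drawn in the order of their medians. The median gene lies 0.64 below the WT mean in Ri replicate 2 and 0.63 above it in Ri replicate 1, and WT replicate 1 lies slightly below WT replicate 2.

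The rise and the fall were of similar size over the genes as a whole. The rise, measured as Ri replicate 1 over the higher WT library, had a median of 1.42-fold, and the fall, measured as the lower WT library over Ri replicate 2, had a median of 1.34-fold. In 101 of the 199 genes the rise was the larger. Few genes were well separated on both sides: 95 exceeded 1.2-fold in both the rise and the fall, 12 exceeded 1.5-fold in both, and 1 exceeded 2-fold in both. Exact 95% binomial intervals, which cover counting error only, lay above 1 for the ratio of the Ri replicates in all 199 genes, for the rise in 159, for the fall in 140 and for both in 106. The rule chose the genes on these same quantities, which favoured such counts. The share with both intervals above 1 grew with the level, from 16 of the 67 genes of the lowest level (8.07 to 15.7 CPM) to 53 of the 67 of the highest (44.7 to 1977 CPM).

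Some genes carried the pattern on 1 side only. In 18 genes the rise exceeded 1.5-fold and the fall was under 1.1-fold; their median levels were 18.9 and 17.9 CPM in WT replicates 1 and 2, 76.7 CPM in Ri replicate 1 and 15.8 CPM in Ri replicate 2. In 12 genes the fall exceeded 1.5-fold and the rise was under 1.1-fold, with medians of 30.3 and 38.5 CPM in WT, 40.4 CPM in Ri replicate 1 and 14.8 CPM in Ri replicate 2. These limits themselves place genes of the former kind near the WT level in Ri replicate 2, and genes of the latter kind near it in Ri replicate 1. The 12 genes beyond 1.5-fold on both sides lay on 9 chromosomes, 3 of them on chromosome 10, and their ratios of the Ri replicates ran from 2.67 to 17.8 in 11 of them. The other was Glyma.13G013500.Wm82.a2.v1, whose ratio of 467 rests on 1.43 expected counts in Ri replicate 2 (exact 95% interval 119 to 26422). Among those 12, a gene of chromosome 17 with 860, 1330, 2042 and 126 counts in WT replicates 1 and 2 and Ri replicates 1 and 2 had the highest level. It stood at 80.3, 124, 203 and 11.4 CPM in that order, and its counts were whole in every library.

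**Figure D2:**
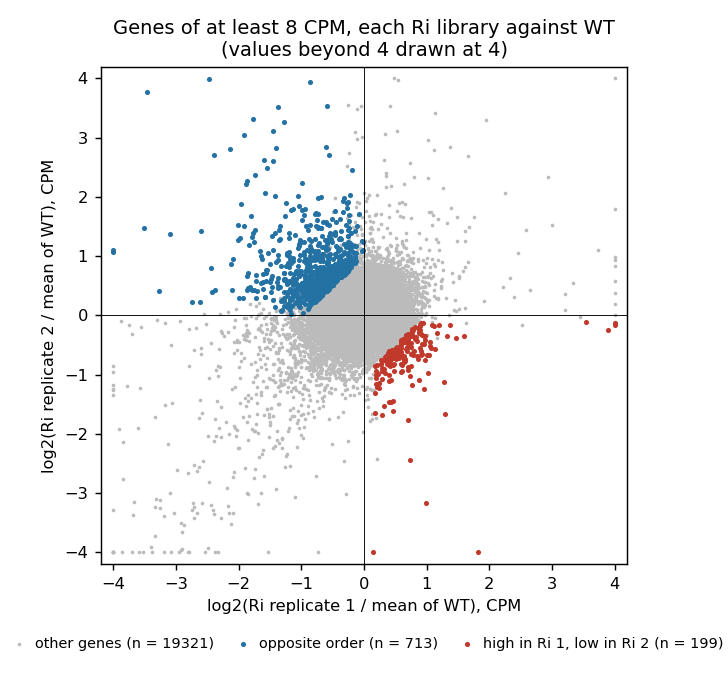
Each of the 20233 genes of at least 8 CPM, with log2 of Ri replicate 1 over the WT mean on the x axis and log2 of Ri replicate 2 over the WT mean on the y axis. The 199 genes (red) fall in the lower right and the 713 genes of the opposite order (blue) in the upper left; both edges along the diagonal are set by the 2-fold rule.

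The largest rise was that of Glyma.19G045000.Wm82.a2.v1, a gene of chromosome 19 with 1 transcript of 3336 bases. It stood at 7.37 CPM in WT replicate 1, 8.33 CPM in WT replicate 2, 693 CPM in Ri replicate 1 and 7.18 CPM in Ri replicate 2. Ri replicate 1 was 83.2-fold above the higher WT library (exact 95% interval 67.5 to 104), while Ri replicate 2 lay only 1.03-fold below the lower one (0.738 to 1.41). Next came Glyma.14G144900.Wm82.a2.v1 on chromosome 14, which was at 2.39, 2.82, 109 and 2.32 CPM in WT replicates 1 and 2 and Ri replicates 1 and 2. Its rise was 38.7-fold (27.1 to 57.9), and Ri replicate 2 again lay 1.03-fold below WT (0.576 to 1.85). In both genes Ri replicate 1 alone stood apart from the other libraries. Summed over the 10 listed genes around each, the level showed no such rise. It was 68.5 CPM in Ri replicate 1 and 63.2 CPM in Ri replicate 2 around Glyma.19G045000.Wm82.a2.v1, and 111 and 113 CPM around Glyma.14G144900.Wm82.a2.v1. A sum can hide a rise in a single gene of low level.

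Genes of chromosomes 6 and 16 had the same shape, at 37.6 against 2.13 CPM and at 125 against 9.91 CPM in Ri replicates 1 and 2. Their WT levels were 2.43 and 2.60 CPM and 10.5 and 10.9 CPM. These 4 were the genes whose rise exceeded 10-fold. Over all genes of at least 8 CPM, Ri replicate 1 exceeded the higher WT library more than 10-fold in 16, and in 12 of those Ri replicate 2 lay within or above the WT range, so that the rule did not take them. In 1 of the 16 Ri replicate 2 was also more than 10-fold above WT.

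The largest falls were those of a pair of genes on chromosome 13. Glyma.13G014600.Wm82.a2.v1, with 1 transcript of 303 bases, was at 23.7 CPM in WT replicate 1, 20.4 CPM in WT replicate 2, 24.4 CPM in Ri replicate 1 and 0.0099 CPM in Ri replicate 2. The value in Ri replicate 2 rests on 0.11 expected counts, under the floor, so the fall was at least 75.1-fold against 3 counts. Ri replicate 1 lay 1.03-fold above the higher WT library (0.860 to 1.23), so this gene was low in Ri replicate 2 rather than high in Ri replicate 1. Glyma.13G013500.Wm82.a2.v1, with 1 transcript of 924 bases, differed in every library: 9.71, 24.6, 60.3 and 0.129 CPM in WT replicates 1 and 2 and Ri replicates 1 and 2. Its WT replicates already differed 2.54-fold. The fall below the lower WT library was 75.1-fold on 1.43 expected counts in Ri replicate 2, also under the floor. Its exact 95% interval, on counts rounded to whole numbers, was 18.9 to 4285. Against 3 counts this fall was 35.8-fold. The rise above the higher WT library was 2.45-fold (2.12 to 2.84). It was the gene with more than 2-fold on both sides. Over all genes of at least 8 CPM, 29 fell more than 10-fold from the lower WT library to Ri replicate 2, of which 8 were also more than 10-fold lower in Ri replicate 1 and 2 are the pair described here.

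This stretch of chromosome 13 was examined further after these values were seen. Only 6 listed genes separate the pair, and another gene of the 199 is the fourth listed gene beyond, at 33.4 and 24.8 CPM in WT, 53.3 CPM in Ri replicate 1 and 23.8 CPM in Ri replicate 2. Of the 10 listed genes around Glyma.13G013500.Wm82.a2.v1, 4 had expected counts equal, within 0.05 counts in every library, to those of another gene. Equal counts can arise when fragments are divided evenly between copies, or by coincidence between genes of few counts. Which of these applied was not tested. The check covered only genes of at least 10 counts summed over the libraries. It found such a twin for 713 of the 47973 listed genes. Neither of the pair had such a twin, but neither had whole counts, so both values depend on how fragments were shared out between copies, and its part in the result was not tested. The 10 genes around Glyma.13G014600.Wm82.a2.v1 summed to 262 CPM in Ri replicate 1 and 295 CPM in Ri replicate 2.

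**Figure D3:**
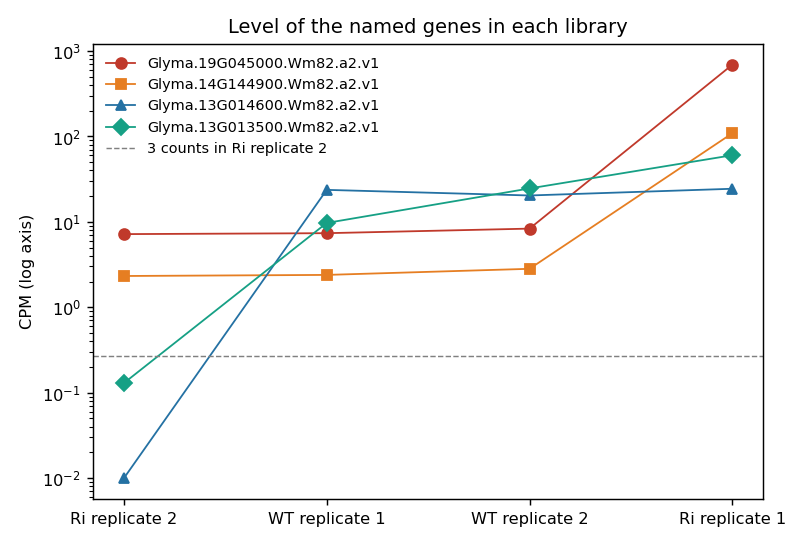
Level in CPM, on a log axis, of the named genes in each library, drawn in the same order of libraries; the dashed line marks 3 counts in Ri replicate 2. The genes of chromosomes 19 and 14 stand apart in Ri replicate 1 alone, at 693 and 109 CPM, and those of chromosome 13 lie under the dashed line in Ri replicate 2.

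A few abundant genes carried much of the summed level. The 10 genes with the most counts supplied 43.0% of the summed CPM of the 199 in Ri replicate 1 and 45.2% in WT replicate 1. The first of them, a gene of chromosome 15 with a transcript of 836 bases, stood at 1964 and 2020 CPM in WT replicates 1 and 2, 2790 CPM in Ri replicate 1 and 1132 CPM in Ri replicate 2. Its WT replicates differed 1.03-fold, and each Ri library lay clear of them. A gene of chromosome 17 came next, at 1266 and 2183 CPM in WT and 2603 and 972 CPM in Ri replicates 1 and 2; here the WT replicates spanned most of the distance between the Ri libraries. A gene of chromosome 13, with whole counts in every library, was at 656 and 618 CPM in WT, 1456 CPM in Ri replicate 1 and 572 CPM in Ri replicate 2, so most of its difference lay in the rise. The ratio of the summed levels of Ri replicates 1 and 2 was 2.47 over the 199 genes and 2.57 without those 10; the rule keeps both above 2.

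The order of the WT replicates, which the rule did not use, leaned the same way in most of the genes. WT replicate 2 was higher than WT replicate 1 in 148 of the 199 genes (74.4%), against 45.1% of all genes of at least 8 CPM. Among the 2381 genes with the same order of libraries at any ratio the share was 65.7%. With library sizes scaled by TMM (edgeR's correction for composition) the shares were 79.4% of the 199, 79.8% of the 2381 and 55.0% of all, so the lean went with this order of libraries and was not particular to the 199. The median log2 ratio of WT replicate 2 to WT replicate 1 was 0.20, against -0.03 over all genes. A gap of more than 1.5-fold with WT replicate 2 the higher was found in 28 of the 199 genes (14.1%, against 1.66% of all), and with WT replicate 1 the higher in 5 (2.51%, against 4.68%). Among the 2381 genes these shares were 1.39% and 0.21%. The WT libraries lie between the Ri libraries by the rule, so the ratio of the Ri replicates limits this gap and the 2-fold limit shaped its share. With WT replicate 2 mostly the higher, the usual order from low to high was Ri replicate 2, WT replicate 1, WT replicate 2, Ri replicate 1. The lean was present at every level, in 44 of the 67 genes of the lowest, 49 of the 65 of the middle and 55 of the 67 of the highest level. It was also present where ratios were small, in 91 of the 125 genes with a ratio up to 2.5, and in 32 of the 39 with a ratio from 2.5 to 3. It was weakest in the 21 genes with a ratio from 3 to 4, of which 12 showed it, and 13 of the 14 genes with a ratio above 4 did. These genes share the same 4 libraries, so the counts describe the libraries and carry no test.

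Genes of the opposite order mirrored this. They were chosen by the same rule with the Ri replicates exchanged and numbered 713, which is 3.58 times as many. With TMM scaling they numbered 600 against 268 for the order described here, and all 199 genes were among those 268. In 169 of the 713 (23.7%) WT replicate 2 was the higher WT library, and their median log2 ratio of the WT replicates was -0.28. The whole set of 20233 genes was also uneven: Ri replicate 1 was more than 2-fold above Ri replicate 2 in 318 genes (1.57%) and more than 2-fold below it in 1050 (5.19%).

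**Figure D4:**
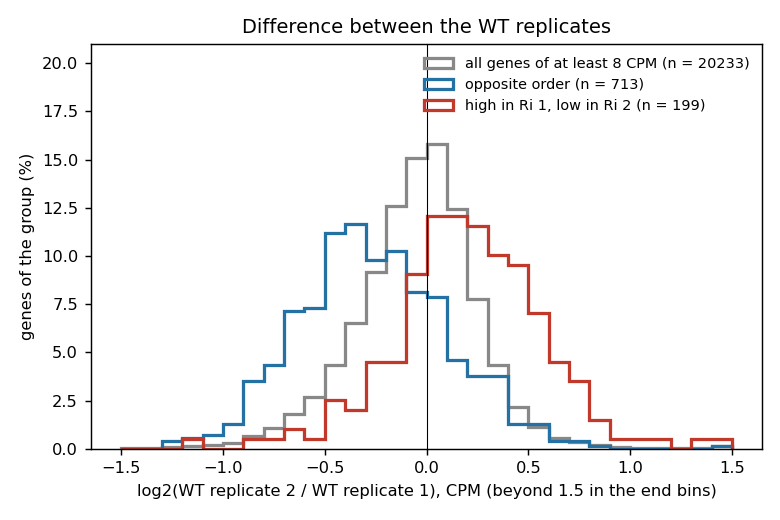
Distribution of log2 of WT replicate 2 over WT replicate 1 for the 199 genes (red), the 713 genes of the opposite order (blue) and all 20233 genes of at least 8 CPM (grey), as the percentage of each group. The red distribution lies to the right of the grey, with a median of 0.20, and the blue to the left, with a median of -0.28.

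The comparison of the design asks which root transcripts differ between the suppressed line and WT, and there these genes gave no calls. In edgeR's quasi-likelihood test across 34151 genes (Benjamini-Hochberg adjusted p under 0.05, n = 2 libraries per genotype), 40 genes were called (0.117%), all of them lower in Ri, and 0 of the 199 were among them. DESeq2 called 316 genes (0.925%), 45 of them higher in Ri, and also 0 of the 199. At an unadjusted p under 0.05 edgeR gave 1 of the 199, Glyma.19G045000.Wm82.a2.v1, against 6.25% of all tested genes; DESeq2 gave 2. The rule places the WT libraries between the Ri libraries, so a near absence of calls was built in and nothing is read from it. Averaged over the Ri libraries most of the genes sat near WT, with a median edgeR log2 fold change of 0.13, against 0.02 over all tested genes. The Ri mean lay above the WT mean in 141 of 199. A mean of levels gives the higher Ri library more weight, so both values were favoured by the rule and no lean is read from them. On the log2 scale the median gene lay 0.63 above the WT mean in Ri replicate 1 and 0.64 below it in Ri replicate 2. For Glyma.19G045000.Wm82.a2.v1 the WT mean was 7.85 CPM ± 0.682 (SD, n = 2) and the Ri mean 350 CPM ± 485 (SD, n = 2), so in Ri the SD exceeded the mean. The log2 fold change of this gene came to 5.51 (standard error 2.03), and its edgeR adjusted p, 0.776, was the lowest of the 199.

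Set alone against the WT libraries, each Ri library gave calls of its own, with the lone library assumed to vary as the WT libraries do. In Ri replicate 1 edgeR called 634 genes higher (1.79% of those tested), and 42 of the 199 were among these. In Ri replicate 2 it called 843 genes lower (2.39%), 44 of the 199 among them. The rule used both contrasts, so these shares were favoured by it. Only 2 genes passed in both. A gene of chromosome 2 was at 5.98 and 9.81 CPM in WT, 19.3 CPM in Ri replicate 1 and 2.48 CPM in Ri replicate 2, with edgeR adjusted p of 0.0243 and 0.00529. A gene of chromosome 12 was at 36.2 and 33.5 CPM in WT, 62.4 CPM in Ri replicate 1 and 21.6 CPM in Ri replicate 2, with edgeR adjusted p of 0.0145 and 0.0328. Both were singled out after their values were seen.

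Features that the rule did not use differed somewhat from those of the other expressed genes, and are described here without a test. The transcripts were shorter, with a median deposited length of 1535 bases (middle 50% from 1178 to 2090) against 1902 bases (1367 to 2625) for all genes of at least 8 CPM and 1764 bases for the 713 genes of the opposite order. Lengths over 3000 bases were found for 18 genes (9.05%, against 17.2% of all), and lengths under 1000 bases for 30 (15.1%, against 10.2%). The genes of the lowest level had a median of 1845 bases and those of the highest 1456 bases. A single transcript was listed for 123 genes (61.8%, against 57.5% of all and 69.1% of the opposite order). The 2381 genes of the same order at any ratio leaned the other way from all genes. Their median length was 2022 bases, with 19.5% over 3000 bases, 5.63% under 1000 bases and 50.6% with a single transcript. Shorter transcripts thus went with the 2-fold limit and not with the order of libraries alone. A stricter limit did not make all of these differences larger. In the 35 genes over 3-fold the median was 1649 bases, with 17.1% over 3000 bases and 22.9% under 1000 bases.

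**Figure D5:**
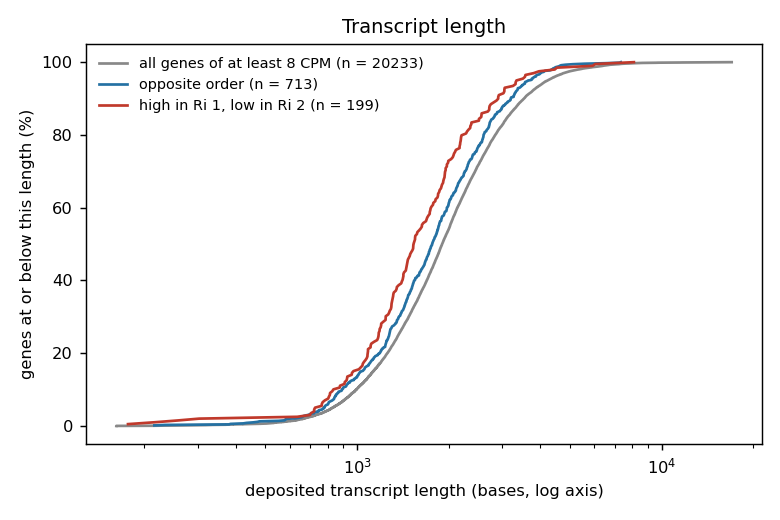
Cumulative percentage of genes by deposited transcript length in bases (log axis) for the 199 genes (red), the 713 genes of the opposite order (blue) and all 20233 genes of at least 8 CPM (grey). The red curve lies to the left through most of its course, with medians of 1535, 1764 and 1902 bases in that order.

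For a gene with several transcripts the deposited length is a mean that can shift when the mix of transcripts shifts. Among the 76 such genes, this length differed by more than 5% between the Ri replicates in 10 (13.2%), against 6.39% of all genes of at least 8 CPM with several transcripts and 11.8% of those of the opposite order. The shifts ran from 9.38% shorter to 13.8% longer in Ri replicate 1, and 7 of the 10 were longer there. Between the WT replicates 5 of the 76 differed as much (6.58%, against 4.56%). The 10 genes were of low level, with a median of 11.03 CPM, where a mix of transcripts rests on few fragments.

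Whole expected counts in every library, within 0.005, were found for 27 of the genes (13.6%, against 8.39% of all). No gene had a twin with equal counts, and of all 20233 genes of at least 8 CPM only 3 had one (0.0148%). The values of the 172 genes without whole counts depend in part on how the authors' estimate shared fragments between alike sequences. The 27 had medians of 17.0 and 19.3 CPM in WT, 25.8 CPM in Ri replicate 1 and 10.9 CPM in Ri replicate 2 and a median ratio of the Ri replicates of 2.36, values that the rule itself shaped. WT replicate 2 was the higher in 19 of the 27.

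The genes were spread over all 20 chromosomes, with 1 on an unplaced sequence. Chromosome 7 held the most, 17, where 10.3 would be in proportion to its genes of at least 8 CPM, followed by chromosome 13 with 16 (13.9 in proportion) and chromosome 15 with 14 (9.55). Chromosomes 3 and 9 held 4 each (8.72 and 9.83 in proportion). Directly neighbouring pairs, among genes of at least 8 CPM, numbered 3, where 1.96 would be in proportion, and they lay on chromosomes 7, 14 and 18. The pair on chromosome 14 was the most abundant. Its genes were at 442 and 592 CPM in WT replicate 1, 680 and 799 CPM in WT replicate 2, 685 and 1321 CPM in Ri replicate 1 and 291 and 499 CPM in Ri replicate 2, so both followed the order described above. The genes of the opposite order formed 45 neighbouring pairs, where 25.1 would be in proportion.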

How the data were processed

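Per the file headers, the authors deposited for each library a transcript length, an expected count (an estimate of the fragments of each gene, with decimals and without normalization) and an FPKM value. The tools given by the submitters' processing notes are Bowtie2, HISAT and RSEM; what each did, its version and whether strand was used is not given in the sources used here. Identifiers carry Wm82.a2.v1. Per the labels, Trizol was used for the RNA and a BGI RNA-Seq kit for the libraries. A gene missing from a table was taken as 0.

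The rule used CPM on library totals. The genes and the gene lists were chosen with earlier results of these data known; the lists need product names and were not tested. Printed identifiers are the 2 genes with the largest rise and the 2 with the largest fall. The fit across all genes was edgeR's quasi-likelihood test (edgeR 4.0.16, R 4.3.3) with genotype as the only term. Expected counts were first rounded to whole numbers, filtered by edgeR's default on low counts and then scaled by TMM, and estimation was robust. The script was also run on simulated counts in which the changed genes differed from WT alike in both Ri libraries. That run does not cover genes on which the Ri replicates disagree, and nothing is read from it here. Standard errors are the fold change over the square root of F. Alternatives used DESeq2 1.42.0 and limma 3.58.1, the latter with voom or on the deposited FPKM as log2(FPKM + 1) or log2(FPKM + 0.1). No source says that replicates came from separate cultures or days, so p-values measure only the spread between these libraries. Intervals are exact binomial (SciPy 1.17.1) on counts rounded to whole numbers and, like floors, cover counting error only.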

Additional observations from a re-analysis of the deposited data

How the results depend on the processing

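The number of genes meeting the rule was 199. It was 268 with TMM-scaled sizes and 197 on FPKM, and it moved with the limits: 317 at 4 CPM, 130 at 16 CPM, 855 with a ratio over 1.5, 35 over 3, and 95 with a margin of 1.2-fold to WT on both sides. With 1 WT library left out it was 229 to 233; without a Ri library the rule cannot be applied. Genes called for genotype over all genes numbered 40, and 48 (1 higher in Ri) with DESeq2 size factors in edgeR. They numbered 0 with library totals (2131 at an unadjusted p under 0.05), in limma-voom (2069) and with limma on log2(FPKM + 1) (2227) or log2(FPKM + 0.1) (2198). They numbered 164 without a filter (14 higher in Ri), 6 with the filter at 8 CPM and 316 in DESeq2 (45 higher in Ri). The cause of these differences was not tested. Of the 199 genes 0 were called in each of these fits, and 0 to 2 had an unadjusted p under 0.05. With the replicate number as a block 107 genes were called (13 higher in Ri), and 0 of the 199. Across genes, the WT difference between replicates correlated with the Ri difference at -0.21, so the numbers were not taken as pairs. Crossing the replicate block, an alternative added after seeing the data, called 68 genes (5 higher in Ri) and 0 of the 199. Leaving out 1 library gave 0 to 1994 calls over all genes and 0 to 44 among the 199: 0 without either WT library, 44 without Ri replicate 1 and 42 without Ri replicate 2.

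For Glyma.13G013500.Wm82.a2.v1 the log2 fold change of Ri against WT, 0.83, turned to -2.69 in limma-voom, -1.05 and -2.10 with limma on log2(FPKM + 1) and log2(FPKM + 0.1), and -0.79 with the replicate block; it ran from -7.45 to 1.83 with 1 library left out. The ranges with 1 library left out were -10.9 to 0.18 for Glyma.13G014600.Wm82.a2.v1, -0.20 to 5.40 for Glyma.14G144900.Wm82.a2.v1 and -0.16 to 6.49 for Glyma.19G045000.Wm82.a2.v1, since each rests on 1 Ri library. The median ratio of Ri replicate 1 to Ri replicate 2 became 2.45 with TMM scaling and that of WT replicate 2 to WT replicate 1 became 1.202 (from 1.15). The ratio of summed levels became 2.60 with TMM scaling and 2.44 on FPKM. In the 35 genes over 3-fold, 54.3% listed 1 transcript and 22.9% were under 1000 bases. Their median length was 1649 bases, and WT replicate 2 was the higher in 71.4% of them. Depth limits values under about 3 counts, here the genes of chromosome 13 in Ri replicate 2.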
